A study of Homo sapiens with 6 samples.

Results

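The G1 cyclins, their kinases, the inhibitor p27 (CDKN1B) and RB1 were followed in T24 cells after exposure to Caba-780, a drug described as an imaging agent that fluoresces in the near infrared. T24 is an established line from a human bladder carcinoma. The rule named 10 genes, and 9 of them (CCND1, CCND3, CCNE1, CCNE2, CDK2, CDK4, CDK6, CDKN1B and RB1) had a row among the 23619 genes of the deposited table; the tenth, CCND2, was not analysed here. One group of 3 RNA-seq libraries came from wild-type T24 cells treated with 3.84 µM Caba-780 over 24 h, and the other from 3 libraries of wild-type T24 cells labelled as having no treatment. The labels name no vehicle and do not say whether each library had its own culture, so the spread behind every p-value here may be technical. A cell line of this kind has been selected for growth in culture, and bulk RNA cannot tell fewer cycling cells from less RNA per cell.

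In G1, D-type cyclins pair with CDK4 or CDK6 and E-type cyclins pair with CDK2. These kinases phosphorylate the retinoblastoma protein RB, which otherwise holds E2F transcription factors inactive, and E2F in turn drives genes of S phase, the E-type cyclins among them. The protein p27 binds and inhibits the cyclin E kinase and assists assembly of the cyclin D kinase. It is controlled largely by degradation, and the cyclins are controlled in part by degradation. Transcript levels therefore do not stand for protein or kinase activity.

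Library totals were 14591234 to 15983035 reads in genes. Control replicate 3 held a read in only 13627 genes, against 19467 to 20308 genes in the other 5 libraries, and only 638 genes with 1 to 9 reads, against 5636 to 6100. The 9 genes are therefore compared with all 6 libraries and with the 5 that remain without this control. Values are normalized counts (reads divided by the authors' size factor of the library), a change is the limma estimate for Caba-780 minus control in log2(value + 1), given with its standard error (SE), and a gene was called at a Benjamini-Hochberg adjusted p under 0.05 over all genes tested.

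Without control replicate 3, both E-type cyclin genes, the cyclin D3 gene and the kinase genes CDK2 and CDK6 were higher with Caba-780, and the cyclin D1 gene was lower. CDK4, CDKN1B and RB1 did not pass the test. With all 6 libraries only CCNE1 was called. In numbers, 1 of the 9 genes was called higher and 0 lower with 6 libraries, where 0.744% of 13847 genes tested were called higher and 0.26% lower. At an unadjusted p under 0.05 limma gave 4 higher and 1 lower (CCND1), where 2352 of the 13847 genes tested passed that threshold in either direction. DESeq2 called 2 higher and 1 lower, and edgeR and limma-voom called 1 higher and 0 lower. Over all 13847 genes tested, DESeq2 called 729 higher and 494 lower, edgeR 102 and 35, and limma-voom 138 and 40. Without control replicate 3, 5 of the 9 were called higher and 1 lower, where 17.2% of 13708 genes were called higher and 15.2% lower (2359 and 2077 genes; 2950 and 1330 with library totals as the scaling). All 9 genes passed the filter on low values in both fits. Their median log2 change was 0.36 with 6 libraries and 0.45 with 5, beside 0.10 and −0.02 over all genes tested. The values of the 2 groups did not overlap for 6 of the 9 genes with 6 libraries, as for 31.3% of all genes tested, and for 8 of the 9 with 5 libraries, as for 56.5% of all genes tested.

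**Figure D1:**
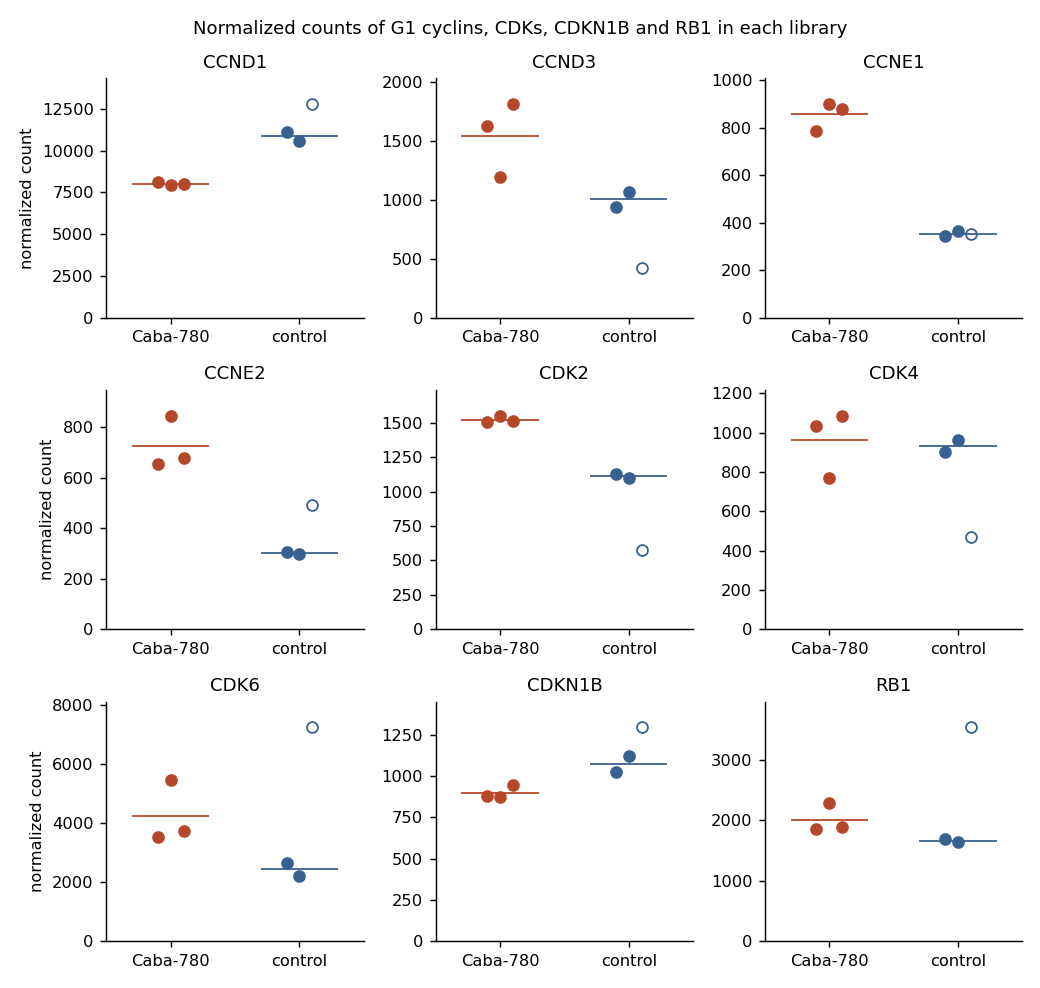
Normalized count of each gene in every library, with Caba-780 in red and control in blue; each point is 1 library, the open point is control replicate 3, and the line is the mean of the 3 Caba-780 libraries or of control replicates 1 and 2. CCNE1 shows tight groups that do not overlap, whereas control replicate 3 lies far above the other controls for CDK6 and RB1 and far below them for CDK2, CDK4 and CCND3.

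CCNE1 (ENSG00000105173, chromosome 19, 29811898 to 29824308, plus strand) encodes cyclin E1, the CDK2 partner at the G1/S boundary. It had 787, 899.5 and 881 normalized counts in Caba-780 replicates 1 to 3, against 343, 364 and 354 in control replicates 1 to 3. All 3 treated libraries lay far above every control, and control replicate 3 sat within the other controls. The log2 change was 1.27 ± 0.16 (SE; limma adjusted p = 0.0368) with 6 libraries and 1.27 ± 0.15 (limma adjusted p = 2.16e-07) with 5. The size held at 1.23 to 1.33 when any one of the other 5 libraries was left out of the 6, but the call did not, with limma adjusted p from 0.125 to 0.299. No gene or 1 gene of the whole table was called in those fits.

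CCNE2 (ENSG00000175305, chromosome 8, 94879770 to 94896678, minus strand) encodes cyclin E2, the second E-type partner of CDK2. Its values were 652, 845 and 676 normalized counts with Caba-780 and 307, 296 and 492 in controls. The groups did not overlap, with control replicate 3 the highest control and Caba-780 replicate 2 the highest treated library. Its log2 change of 1.02 ± 0.26 (SE) missed the threshold with 6 libraries (limma adjusted p = 0.142) and passed it with 5, at 1.25 ± 0.16 (limma adjusted p = 7.11e-07). In the authors' deposited table, CCNE1 (adjusted p = 2.08e-06) and CCNE2 (adjusted p = 0.0392) were the 2 members under 0.05, in a table with 2.35% of its rows higher and 1.2% lower at that threshold. Exons of CCNE2 share 1629 bases, 37.0% of its exonic length, with INTS8 on the other strand, and the strand setting of the counting is not given in the sources used here. INTS8, a subunit of the Integrator complex, had 934, 1007 and 993 normalized counts with Caba-780 and 1261, 1233 and 1489.8 in controls, so that it ran in the direction opposite to CCNE2.

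Of the D-type cyclins, CCND1 (ENSG00000110092, chromosome 11, 69641087 to 69654474, plus strand), the cyclin that links growth factor signals to CDK4 and CDK6, was the most abundant of the 9 genes per length. It had 8107, 7953 and 8029 normalized counts with Caba-780, against 11109, 10599 and 12783 in controls. The treated libraries were close together and all lay below the lowest control. The change was −0.51 ± 0.15 (SE; limma adjusted p = 0.174) with 6 libraries and −0.43 ± 0.13 (limma adjusted p = 0.0120) with 5, and the call with 5 was lost without control replicate 1 (limma adjusted p = 0.0735). LTO1 on the other strand shares 497 bases, 10.3% of the exonic length of CCND1, and had 301, 291 and 289 normalized counts with Caba-780 and 184, 168 and 0 in controls.

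CCND3 (ENSG00000112576, chromosome 6, 41934933 to 42050357, minus strand) encodes cyclin D3, a further partner of CDK4 and CDK6. It had 1623, 1196 and 1809 normalized counts with Caba-780, against 939, 1066 and 417 in controls. Caba-780 replicate 2 was the lowest treated library and control replicate 3 the lowest control, and the groups did not overlap. The change was 1.02 ± 0.39 (SE; limma adjusted p = 0.262) with 6 libraries and 0.60 ± 0.16 (limma adjusted p = 0.00489) with 5. That call was lost without control replicate 1 (limma adjusted p = 0.0659).

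CDK2 (ENSG00000123374, chromosome 12, 55966769 to 55972784, plus strand) encodes the catalytic partner of the E-type cyclins. It had 1503, 1551 and 1510.0 normalized counts with Caba-780, against 1125, 1102 and 574 in controls. The treated libraries were close together and above every control, control replicates 1 and 2 were close together too, and control replicate 3 held 0.515 of the mean of the other controls. The change was 0.77 ± 0.29 (SE; limma adjusted p = 0.259) with 6 libraries and 0.45 ± 0.14 (limma adjusted p = 0.0134) with 5. With 5, leaving out a further control ended the call (limma adjusted p = 0.0744 without control replicate 1 and 0.123 without control replicate 2).

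CDK6 (ENSG00000105810, chromosome 7, 92604921 to 92836594, minus strand), a kinase of the D-type cyclins, was the gene most altered by the choice of libraries. It had 3536, 5480.1 and 3719.9 normalized counts with Caba-780, against 2662, 2195 and 7262 in controls. Control replicate 3 stood at 2.99 times the mean of the other controls and above every treated library, while control replicates 1 and 2 were below them all. The change was 0.25 ± 0.47 (SE; limma adjusted p = 0.790) with 6 libraries and 0.78 ± 0.16 (limma adjusted p = 0.000774) with 5.

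Promoter windows from RefSeq (GRCh38.p14, from 250 bases before to 50 after a start site) were present for 6 of the 9 genes, namely CCNE1, CCND3, CDK4, CDK6, CDKN1B and RB1, in 9 windows. The E2F-type motif TTTNNCGC was in 0 of the 9 on either strand, and in 6.89% of all 35116 windows. This motif is only 1 form of the E2F site. Other forms were not searched, so the lack of a match does not show that a window lacks E2F sites. Several of the 9 windows lie far from the start of the counted gene model, at 172724 bases for the only RB1 window, 108549 and 111152 bases for 2 of the 3 CCND3 windows, and 1669 to 3703 bases for the third CCND3 window, the second CDK6 window and those of CDKN1B and CDK4, so these windows do not cover the starts of those gene models. The GC box GGGCGG, the element bound by Sp1, was in 45.0% of all windows on one strand or the other and in 6 of the 9 here. CDK4 (3 boxes) and CDKN1B (1 box), which were not called, had it, and the second CDK6 window had none. It did not overlap the E2F-type motif here, since that had no match. CCNE1 was called higher in both fits and CDK6 only without control replicate 3. For these 2 genes a RefSeq start site lay within 100 bases of the start of the counted gene model (93 bases for CCNE1 and 21 for CDK6). The bases of the window before the gene model's start are shown with the GC boxes of both strands in capitals. The CCNE1 stretch, chr19:29811741-29811897 on the plus strand, holds 5 GC boxes in 157 bases, and the CDK6 stretch, chr7:92836595-92836823 on the minus strand, holds 3 in 229 bases.
CCNE1: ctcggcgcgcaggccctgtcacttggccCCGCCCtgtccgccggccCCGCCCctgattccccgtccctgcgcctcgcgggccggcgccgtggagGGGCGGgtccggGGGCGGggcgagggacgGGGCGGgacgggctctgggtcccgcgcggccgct
CDK6: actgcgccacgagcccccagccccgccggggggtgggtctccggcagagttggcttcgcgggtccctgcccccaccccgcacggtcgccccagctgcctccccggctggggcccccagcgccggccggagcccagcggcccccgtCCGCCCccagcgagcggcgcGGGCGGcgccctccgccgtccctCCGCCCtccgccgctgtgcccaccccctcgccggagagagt
Both stretches are rich in G and C, at 83.4% for CCNE1 and 82.1% for CDK6.

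CDK4 (ENSG00000135446, chromosome 12, 57747727 to 57756013, minus strand), the other cyclin D kinase, did not pass in either fit. It had 1031, 768 and 1086 normalized counts with Caba-780, against 899, 961 and 469 in controls. The groups overlapped with or without control replicate 3. The change was 0.03 ± 0.16 (SE; limma adjusted p = 0.894) with 5 libraries, with a 95% interval from −0.29 to 0.35, and the interval with 6 libraries ran from −0.42 to 1.14. TSPAN31 on the other strand shares 1369 bases, 43.2% of the exonic length of CDK4, and was low at 64.8 to 122 normalized counts with Caba-780 and 58.2 to 87.97 in controls.

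CDKN1B (ENSG00000111276, chromosome 12, 12715058 to 12722371, plus strand) had 877, 872 and 948 normalized counts with Caba-780, against 1025, 1119 and 1297 in controls. All treated libraries lay below all controls, yet the change of −0.35 ± 0.17 (SE; limma adjusted p = 0.363) with 6 libraries and −0.25 ± 0.14 (limma adjusted p = 0.178) with 5 did not pass. The 95% interval with 5 libraries ran from −0.55 to 0.04.

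RB1 (ENSG00000139687, chromosome 13, 48303726 to 48599436, plus strand) had 1849.7, 2288 and 1886 normalized counts with Caba-780, against 1689.8, 1635 and 3545 in controls. Control replicate 3 was above every other library, and the remaining controls were below every treated library. The change was −0.10 ± 0.33 (SE; limma adjusted p = 0.888) with 6 libraries and 0.27 ± 0.14 (limma adjusted p = 0.150) with 5, so its sign depended on that control.

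**Figure D2:**
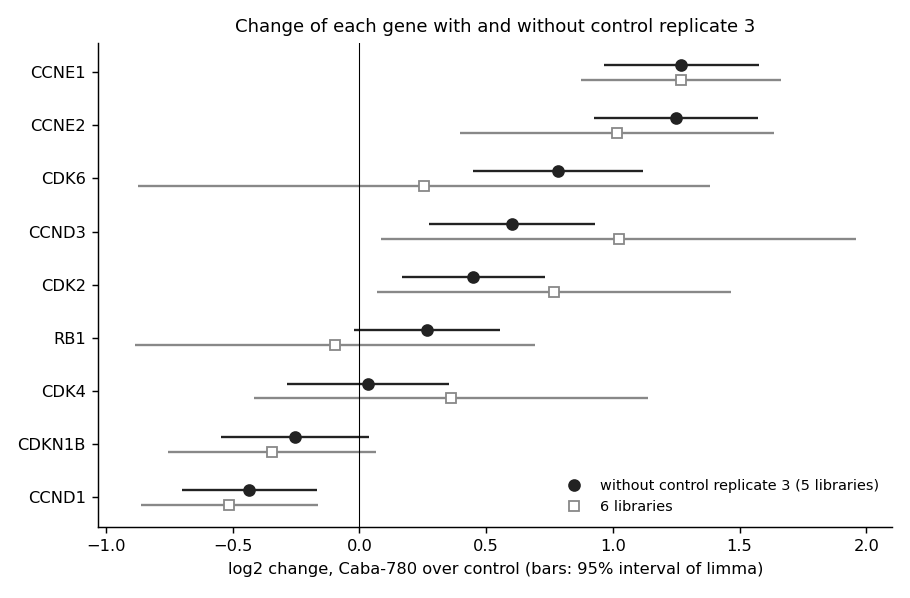
Log2 change of each gene, Caba-780 over control, with the 95% interval of limma; filled circles leave out control replicate 3 and open squares use all 6 libraries. CCNE1 has nearly the same change in both fits, CDK6 moves from 0.25 with 6 libraries to 0.78 with 5, and the interval of every gene is narrower with 5 libraries.

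The 3 genes that control replicate 3 held at the highest multiple of the other controls also had the lowest GC content. The longest annotated transcripts of CCNE2, RB1 and CDK6 had 36.9%, 37.3% and 39.5% GC, and these genes differed in control replicate 3 from the mean of the other controls by 0.70, 1.09 and 1.59 on the log2 scale. CCND3, with 56.2% GC, and CDK4, with 53.6%, differed there by −1.26 and −0.98. The same 5 genes deviated in Caba-780 replicate 2 from the other treated libraries in the same directions, at 0.35 for CCNE2, 0.29 for RB1, 0.60 for CDK6, −0.52 for CCND3 and −0.46 for CDK4. CDK2 and CCNE1, of GC content close to that of CDK4, did not follow this in both libraries. CDK2, with 51.5% GC, differed by 0.04 in Caba-780 replicate 2 and by −0.95 in control replicate 3. CCNE1, with 52.9% GC, was nearly flat in both, at 0.11 in Caba-780 replicate 2 and 0.00 in control replicate 3. The 2 libraries deviated in the same direction for 6 of the 9 genes and for 70.5% of all genes tested. Across the genes tested, Spearman's rho of the deviation with GC content was −0.60 in Caba-780 replicate 2 and −0.65 in control replicate 3, and 0.25 to 0.64 in the other 4 libraries (a description across genes, which share these libraries and are not replicates). Each deviation is taken from the other 2 libraries of the group. The positive values in the other 4 libraries are therefore not independent of the negative values in these 2. When the trend on GC content was removed from each library, an alternative chosen after the data were seen, limma with 6 libraries called CCNE1 (1.13, adjusted p = 0.0177), CCNE2 (1.204, adjusted p = 0.00343) and CCND3 (0.80, adjusted p = 0.0374). Over all genes that fit called 674 higher and 455 lower of 13841. With 5 libraries the GC correction called the 6 genes that limma called without it, and CDKN1B (−0.28, limma adjusted p = 0.0483). Over all genes it then called 2759 higher and 2530 lower of 13702. The part of GC content in the group differences was not tested otherwise.

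**Figure D3:**
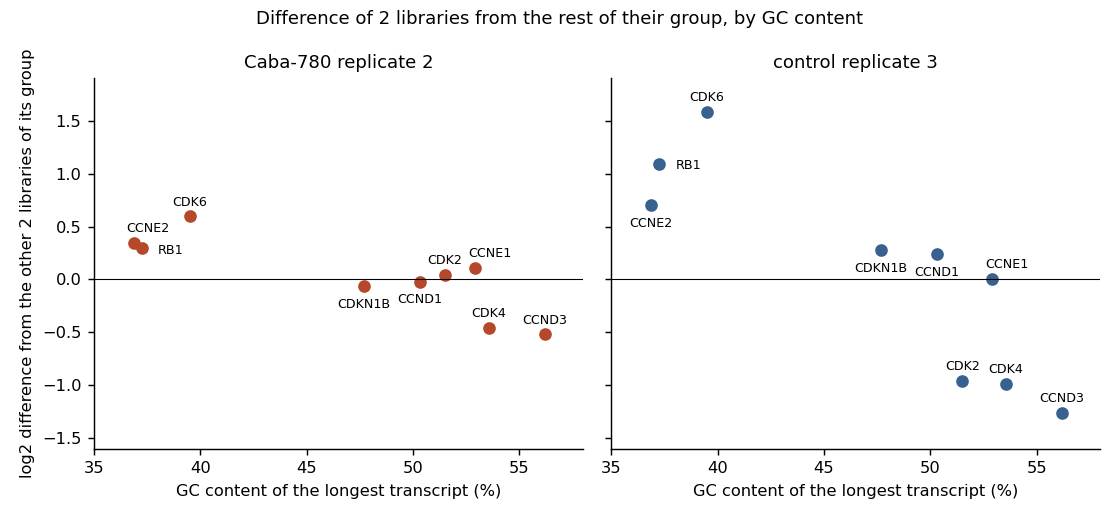
Log2 difference of 1 library from the mean of the other 2 libraries of its group, against the GC content of the longest GENCODE v29 transcript of each gene, for Caba-780 replicate 2 and control replicate 3. In both libraries CCNE2, RB1 and CDK6, at 36.9% to 39.5% GC, lie above 0, and CDK4 and CCND3, at 53.6% and 56.2%, lie below it.

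Per kb of gene length, so that genes can be compared, CCND1 was at 1662 normalized counts per kb with Caba-780 and at 2380 in the 3 controls, above 98.5% and 98.7% of the 14866 protein-coding genes of the table. The other 8 genes lay between 165 (CCNE2) and 391 (CDK2) per kb with Caba-780, and from CDK2 downward through CDK6, CCNE1, CDKN1B, RB1, CDK4 and CCND3 each level overlapped the next over the libraries. In control replicates 1 and 2 the order below CCND1 was CDKN1B, CDK4, CDK2, RB1, CDK6, CCND3, CCNE1 and CCNE2, in which CDK4 overlapped CDK2 and CDK6 overlapped CCND3. CCNE1 had 336 per kb with Caba-780 and 139 in control replicates 1 and 2, so its place in the 2 orders was 4 and 8 of the 9 genes. The length is that of the exons of the gene model, without introns, and levels per kb depend on which transcripts the cells use.

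Ratios within a library do not depend on its scaling, and they are given as levels per kb, chosen with the values known and without a test. CCND1 exceeded CCND3 by 6.0, 7.99 and 5.33 times with Caba-780, against 14.2, 11.9 and 36.8 times in controls. The balance between the D-type cyclins was thus lower on the CCND1 side in every treated library. The sum of CCNE1 and CCNE2 over the sum of CCND1 and CCND3 was 0.233, 0.294 and 0.253 with Caba-780, against 0.0831, 0.0884 and 0.0922 in controls. Control replicate 3 stood with the other controls in this ratio, and the mean was 2.96 times higher with Caba-780 with all controls and 3.03 times without that one. The sum of the E-type cyclins over CDKN1B was 1.46, 1.76 and 1.48 with Caba-780, against 0.561, 0.528 and 0.543 in controls, again with separate groups and close controls. CDK2 over CDKN1B was 1.24, 1.28 and 1.15 with Caba-780, against 0.792, 0.711 and 0.320 in controls. CCNE1 over CCNE2 overlapped between the groups, at 2.08, 1.84 and 2.24 with Caba-780 and 1.93, 2.12 and 1.24 in controls. CDK6 over CDK4 was 0.886, 1.84 and 0.885 with Caba-780, against 0.765, 0.590 and 4.0 in controls, where control replicate 3 and Caba-780 replicate 2 stood out in the same direction.

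**Figure D4:**
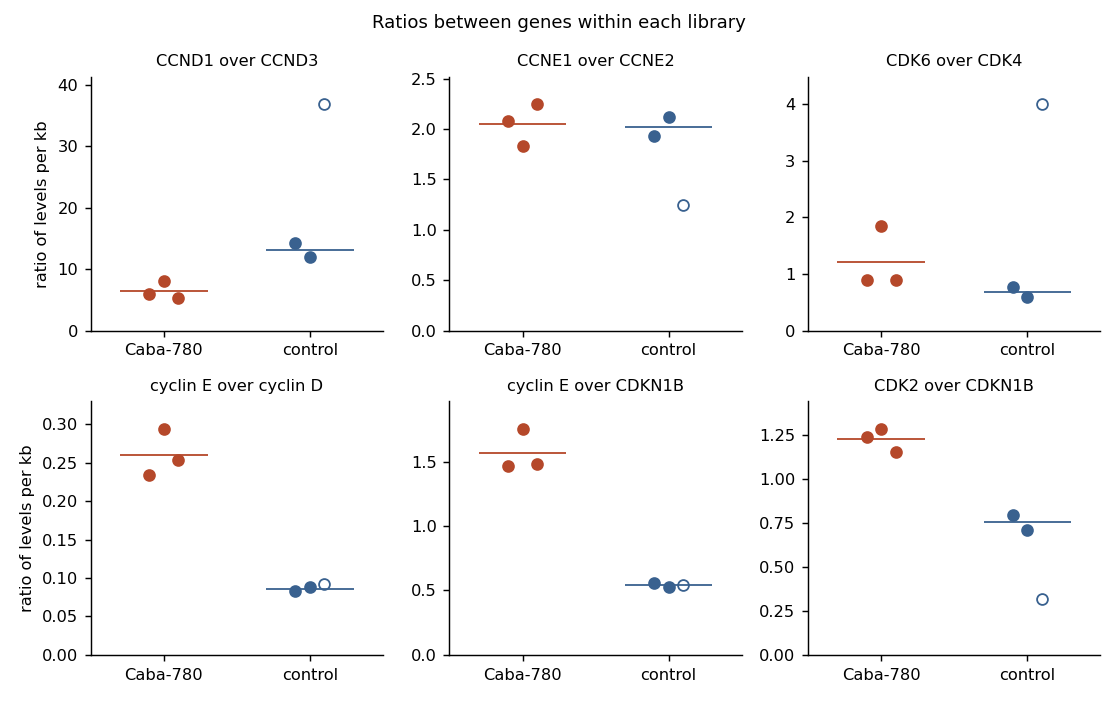
Ratio of levels per kb between genes or sums of genes within each library, with Caba-780 in red and control in blue; each point is 1 library, the open point is control replicate 3, and the line is the mean of the 3 Caba-780 libraries or of control replicates 1 and 2. Cyclin E (CCNE1 and CCNE2) over cyclin D (CCND1 and CCND3) and over CDKN1B separates the groups with all controls close together, and CCNE1 over CCNE2 does not separate them.

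The other genes of the pathway were taken as 32 regulators and 20 E2F targets, all of which were tested. Of the regulators, CDC25A was called higher and 0 were called lower with 6 libraries, beside 0.744% and 0.26% of all genes tested. At an unadjusted p under 0.05 limma had 9 higher and 3 lower, where 2352 of 13847 genes passed in either direction. DESeq2 called 6 higher and 2 lower, limma-voom 2 higher and 0 lower, and edgeR 1 higher and 0 lower. Over all genes tested these called 729 and 494, 138 and 40, and 102 and 35 in the same order. Without control replicate 3, 11 of the 32 were called higher and 5 lower, where 17.2% of all genes tested were called higher and 15.2% lower. The share called lower was near that of all genes. Their median log2 change was 0.25 with 6 libraries and 0.15 with 5.

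CDC25A, the phosphatase that activates CDK2, had 989, 905 and 1086 normalized counts with Caba-780 and 449, 437 and 414 in controls. Its groups were far apart and all controls close, and the change was 1.19 ± 0.17 (SE; limma adjusted p = 0.0409) with 6 libraries and 1.16 ± 0.15 (limma adjusted p = 8.15e-07) with 5. CDK7, the kinase of the CDK-activating complex, was higher with 5 libraries (0.61 ± 0.15) and did not pass with 6 (0.64, limma adjusted p = 0.164). Its partners CCNH (−0.02 with 5 libraries and 0.28 with 6) and MNAT1 (−0.01 and 0.02), named after their values were seen, did not pass in either fit.

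Of the 10 E2F and DP factors, 6 were called higher and 1 lower with 5 libraries, beside 17.2% and 15.2% of all genes tested. E2F2, an activator, had 995, 923 and 985 normalized counts with Caba-780, against 395, 364 and 206 in controls. Its change was 1.35 ± 0.15 (SE) with 5 libraries, and 1.64 ± 0.28 with 6, which missed the threshold (limma adjusted p = 0.0624). The atypical repressor E2F7 had 2209.9, 2768 and 2206 normalized counts with Caba-780, against 1035, 1054 and 1750.3 in controls, with a change of 1.19 ± 0.14 (SE) with 5 libraries and 0.94 ± 0.26 with 6 (limma adjusted p = 0.161). Named after their values were seen, E2F8 (1.21), a second atypical repressor, E2F1 (0.57) and E2F3 (0.47), both activators, and E2F6 (0.45), a repressor that works without pocket proteins, were also called higher with 5 libraries, and E2F5 (−0.68), a partner of the pocket proteins, was called lower. With 6 libraries their changes were 1.19 for E2F8, 1.04 for E2F1, 0.30 for E2F3, 0.23 for E2F6 and −0.50 for E2F5, with limma adjusted p from 0.0991 to 0.636.

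Of the pocket protein genes other than RB1, RBL2, which encodes p130 and is known from resting cells, had 1120.2, 1197 and 1045 normalized counts with Caba-780, against 1869, 1627 and 2512 in controls, and was lower with 5 libraries (−0.64 ± 0.14, SE; limma adjusted p = 0.00103) and not called with 6 (−0.81 ± 0.21, limma adjusted p = 0.143). RBL1, which encodes p107, had a change of 0.25 ± 0.15 with 5 libraries (limma adjusted p = 0.209) and −0.07 ± 0.30 with 6 (limma adjusted p = 0.907). Neither passed, and the sign depended on control replicate 3, which had 1581 normalized counts against 799 and 822 in the other controls. Among 6 CDK inhibitor genes 2 were called higher and 1 lower with 5 libraries, beside 17.2% and 15.2% of all genes tested, so the share called lower was near that of all genes. CDKN2B (p15) was higher by 0.93 ± 0.19 and CDKN2C (p18) lower, at −0.75 ± 0.15, both being INK4 inhibitors of CDK4 and CDK6. With 6 libraries neither passed, CDKN2B at 1.16 (limma adjusted p = 0.126) and CDKN2C at −0.43 (limma adjusted p = 0.511). The CDKN2C groups then overlapped, with 889 to 1145 normalized counts with Caba-780 and 881 in control replicate 3. The other inhibitor called higher with 5 libraries was CDKN1A (0.56 ± 0.14), which encodes p21 and was named after its value was seen. With 6 libraries it was at 1.07 ± 0.43 and did not pass (limma adjusted p = 0.281).

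In the list of turnover factors and cyclin A, 1 of 10 genes was called higher and 2 lower with 5 libraries, shares near the 17.2% and 15.2% of all genes tested. CCNA2, the cyclin that follows cyclin E as the partner of CDK2 in S phase, had 1644, 1684 and 1812 normalized counts with Caba-780, against 3204, 3241 and 5555 in controls. It thus ran against the E-type cyclins, with a change of −0.91 ± 0.13 (SE; limma adjusted p = 6.88e-06) with 5 libraries and −1.17 ± 0.25 with 6 (limma adjusted p = 0.109). RBX1, the RING subunit of cullin ubiquitin ligases, was lower (−0.55 ± 0.16), and AMBRA1 (0.39), which directs D-type cyclins to degradation and was named after its value was seen, was higher, both with 5 libraries. With 6 libraries neither passed, RBX1 at −0.70 (limma adjusted p = 0.233) and AMBRA1 at 0.44 (limma adjusted p = 0.278).

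Of the 20 E2F targets, CDC6 was called with 6 libraries, higher, and 0 lower, beside 0.744% and 0.26% of all genes tested. At an unadjusted p under 0.05 limma had 6 higher and 0 lower, where 2352 of 13847 genes passed in either direction. DESeq2 called 4 higher and 0 lower, beside 729 and 494 over all genes tested. Without control replicate 3, 7 of the 20 were called higher and 0 lower, beside 17.2% and 15.2% of all genes tested. That holds for the listed genes only. They were chosen with earlier results of these data known and do not stand for all E2F targets or S-phase genes. CCNA2, an S-phase cyclin gene grouped above with the turnover factors, was outside the 20 and was called lower with 5 libraries (−0.91). The count of 0 lower thus depends on which list holds CCNA2. At an unadjusted p under 0.05 the list had 7 higher and 0 lower with 5 libraries, where 5781 of 13708 genes passed in either direction. DESeq2 called 7 and 0 of the list, beside 2273 and 1924 over all genes tested. ORC1, a subunit of the origin recognition complex, had 990.3, 1082 and 1027 normalized counts with Caba-780 and 448, 485 and 612 in controls, a change of 1.15 ± 0.14 (SE) with 5 libraries and 1.01 ± 0.19 with 6, which missed the threshold (limma adjusted p = 0.0772). CDC6, which loads the replicative helicase, changed by 1.06 ± 0.13 with 5 libraries and 1.15 ± 0.16 with 6 (limma adjusted p = 0.0409). The median log2 change of the list was 0.32 with 6 libraries and 0.25 with 5.

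**Figure D5:**
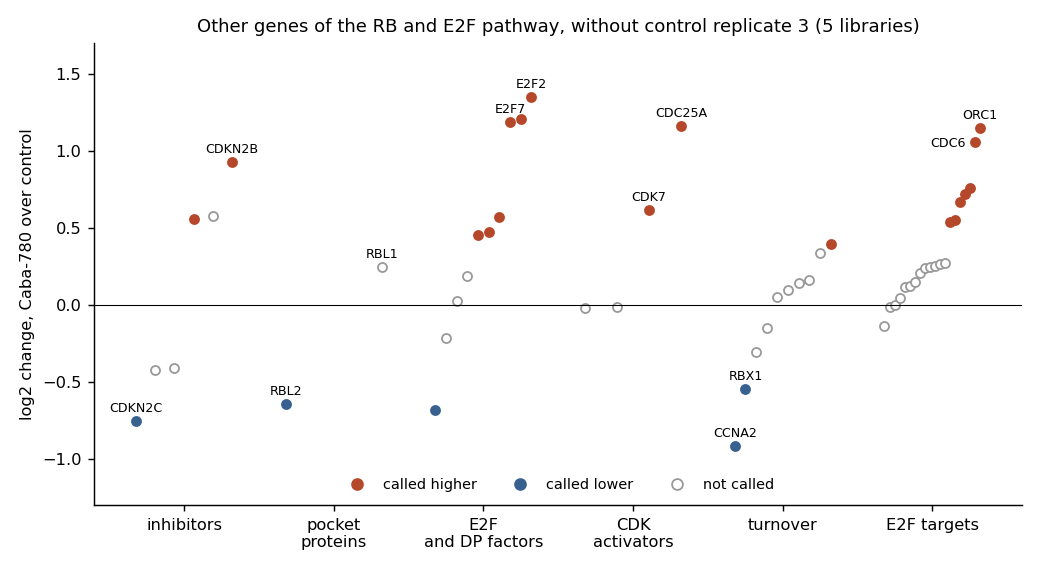
Log2 change, Caba-780 over control, of 52 other genes of the RB and E2F pathway without control replicate 3, grouped by role; each point is 1 gene, filled red where called higher, filled blue where called lower and open where not called. E2F2, E2F7, E2F8, CDC25A, ORC1 and CDC6 lie above 1, CDKN2B lies just below 1, and CCNA2 and CDKN2C are the lowest points.

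Over the 6 libraries, the protein-coding genes with the pattern nearest to CCNE1, each centred on its own mean, were STX3, CDC14A, POLR3C, STYK1 and GORAB, of 12006 compared. Their root mean square difference from CCNE1 was 0.0323 to 0.0923 on the log2 scale. STX3, a syntaxin of membrane fusion and the nearest, had 611, 674 and 643 normalized counts with Caba-780, against 258, 284 and 268 in controls. CDC14A, a phosphatase, had 345, 439 and 368 with Caba-780, against 157, 166 and 171 in controls. In both, as in CCNE1, control replicate 3 was close to the other controls, which follows from choosing these genes by their match over all 6 libraries.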

How the data were processed

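The submitters' processing notes name the build hg38 and the tools HISAT2 2.0.5, fastp, DESeq2 1.20.0 and featureCounts 1.5.0-p3. Settings, strandedness and annotation release are not stated there. What the authors deposited is a normalized signal per library (reads per gene divided by a size factor), their group means, log2 fold changes, p-values and adjusted p-values, and the gene length in bases (unit other). Whole reads were recovered in 100% of values (tolerance 1e-06), and 3 reads correspond to 0.188 to 0.206 CPM (counting error only). All 9 genes have the coordinates of GENCODE v29.

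The test kept genes reaching 10 normalized counts in 3 or more libraries and was run with limma 3.58.1 (R 4.3.3, trend and robust moderation, two-sided) on log2(value + 1), and adjusted over all genes tested. The design planned edgeR for raw counts and this test for normalized values. edgeR 4.0.16, DESeq2 1.42.0 and limma-voom on recovered reads, other scalings, filters, pseudocounts, a threshold of 0.1, a replicate block and each library left out were alternatives. Fits were tested on simulated data with the same spread in all libraries and no GC trend. That simulation held no library like control replicate 3, so it cannot show how the fit with 6 libraries performs here. No 2 libraries of a group were alike within sampling noise (chi-square per degree of freedom 9.10 to 191).

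The members and lists were chosen with earlier results of these data known. All members were named; of each list or role within it, genes called with 6 libraries and the 2 with the lowest p without control replicate 3; and the 5 protein-coding genes nearest in pattern to each member called with 6 libraries.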

Additional observations from a re-analysis of the deposited data

How the results depend on the processing

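With 6 libraries, the count of called members (1, CCNE1) became 3 with DESeq2 and with GC correction, and 0 with no filter and with the replicate block; it was 0 to 6 over fits that each left out 1 library, 6 being the fit without control replicate 3. The count of called regulators (1) became 3 at an adjusted p under 0.1, 8 with DESeq2, 2 with limma-voom, 9 with GC correction, 0 with no filter or the replicate block, and 0 to 16 over libraries left out. That of E2F targets (1) became 2 at 0.1 and with library totals, 4 with DESeq2 or GC correction, 0 with no filter or the replicate block, and 0 to 7 over libraries left out. Leaving out any one library other than control replicate 3 gave 0 for all 3 counts. Without control replicate 3, 6 members were called, 3 to 6 when a further library was left out (3 without control replicate 1), and of 16 regulators 10 to 16 (10 without control replicate 2); the replicate block called 4 members (not CCND1, adjusted p = 0.0767, or CDK2, 0.0557), and the counts under other alternatives stayed within 1.5 times. CCNE1 kept its direction in every alternative, as did CCND1, CCND3, CCNE2, CDK2 and CDKN1B. With 5 libraries, Caba-780 replicate 3 had no control of its number, so the replicate block gave the members the same changes as leaving that library out. Signs reversed only for genes not called in the main fit with the same libraries, though CDK6, which reversed with 6 libraries, was called with 5. With 6 libraries RB1 reversed with library totals (0.0325), with GC correction (0.0831) or over libraries left out (−0.292 to 0.266). CDK6 reversed over libraries left out of the 6 (−0.0791, without control replicate 2, to 0.784). With 5 libraries CDK4 reversed with the replicate block (−0.0622) or over further libraries left out (−0.0622 to 0.187). The cause was not tested. Same-numbered libraries were not treated as paired in the main fits. The correlations of their deviations were 0.30, −0.33 and −0.10. These cannot show whether such libraries shared a batch, since the deviations also followed GC content. Over all genes, 103 were called higher and 36 lower with 6 libraries, against 729 and 494 with DESeq2, 674 and 455 with GC correction and, with the replicate block in limma, 0 (1563 at an unadjusted p under 0.05). With 6 libraries limma-voom called 138 and 40, library totals gave 140 and 29, and an adjusted p under 0.1 gave 221 and 84. Library totals moved the median change of all genes from 0.10 with 6 libraries and −0.02 with 5 to 0.22 and 0.08, and DESeq2 moved it to −0.01 with 6.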
